A study of Mus musculus with 6 samples.

Results

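Tgoln1, a gene for a membrane protein that cycles through the trans-Golgi network, and Plekha8, a gene for a protein that carries glucosylceramide within the Golgi, were followed in mouse liver together with 8 further names. These were Tgoln2, Plekha3, Gltp, Col4a3bp (now Cert1), Golga1, Golga4, St3gal5 and Ugcg, which stand for trans-Golgi structure, for the transfer of ceramide and its glycolipids, and for the first steps of ganglioside synthesis. The members were all probe sets that the platform annotation pairs with one of these genes alone, which gave 26 of the 45037 probe sets tested, for 9 of the 10 names. Tgoln2 was paired with no probe set in that annotation and was not analysed here. The set was drawn up with the strain comparison already known, and it was the low values of Tgoln1 and Plekha8 in the congenic strain that led to it. The strain differences of the members are therefore a description and support nothing further.

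The samples were livers of female mice aged 8 weeks on chow, 1 mouse per array and 3 arrays per strain. One group was the inbred strain C57BL/6J. The other was B6.C3H-6T, a congenic strain that keeps a C57BL/6J background and carries a piece of C3H chromosome 6, and that the series describes as having low serum IGF-1. The labels name no treatment other than the chow diet. The limits of the C3H segment are not known here.

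In the cell, the protein of Cert1 carries ceramide made in the endoplasmic reticulum to the Golgi, where this ceramide is turned into sphingomyelin. The enzyme of Ugcg turns ceramide into glucosylceramide. The protein of Plekha8 (also called FAPP2) binds the lipid PI4P at the trans-Golgi and brings glucosylceramide to where further sugars are added. The sialyltransferase of St3gal5 makes the ganglioside GM3, the parent of most gangliosides. Golga1 and Golga4 encode golgins, long coiled-coil tethers of the trans-Golgi that catch incoming vesicles.

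The genes Plekha8, St3gal5 and Tgoln1 all lie on chromosome 6, and the upstream sequences of these 3 genes are shown because their probe sets were the low ones. Each is the 250 bases before the annotated start site in the RefSeq table of build GRCm38.p6, read 5′ to 3′ on the strand of the gene. Capitals mark GC boxes (GGGCGG on either strand) and CCAAT boxes (CCAAT on either strand). The letters of these motifs can overlap, and in the 3 sequences shown they did not. For Plekha8 the first of 2 listed start sites is shown, at chr6:54594861-54595110 on the + strand. St3gal5 is at chr6:72097358-72097607 on the + strand and Tgoln1 at chr6:72617001-72617250 on the - strand.
Plekha8: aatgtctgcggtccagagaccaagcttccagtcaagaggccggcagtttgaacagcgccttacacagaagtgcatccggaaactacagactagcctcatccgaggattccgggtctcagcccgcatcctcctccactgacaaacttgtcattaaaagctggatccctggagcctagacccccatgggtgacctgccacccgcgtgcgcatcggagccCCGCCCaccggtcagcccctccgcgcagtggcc
St3gal5: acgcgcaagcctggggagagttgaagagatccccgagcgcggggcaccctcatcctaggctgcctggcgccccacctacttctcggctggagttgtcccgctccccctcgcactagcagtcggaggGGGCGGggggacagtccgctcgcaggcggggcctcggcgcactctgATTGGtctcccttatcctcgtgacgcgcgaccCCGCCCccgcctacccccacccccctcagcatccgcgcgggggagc
Tgoln1: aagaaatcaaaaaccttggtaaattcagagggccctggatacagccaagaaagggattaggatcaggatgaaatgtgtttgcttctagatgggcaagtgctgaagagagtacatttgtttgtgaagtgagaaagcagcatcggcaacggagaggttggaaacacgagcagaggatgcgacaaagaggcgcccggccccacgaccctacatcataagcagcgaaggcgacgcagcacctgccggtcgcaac

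The 3 sequences differ in make-up. The Tgoln1 sequence was 51.2% G and C with 12 CG pairs, that of Plekha8 60.8% with 15 and that of St3gal5 71.6% with 25, where all 32851 upstream sequences of the table had a median of 52.4% and 6 CG pairs. A GC box was found 1 time for Plekha8, 2 times for St3gal5 and not at all for Tgoln1, and a CCAAT box 1 time, for St3gal5. Of all upstream sequences 32.7% held a GC box and 33.8% a CCAAT box. The E-box CACGTG (6.02% of all sequences, either strand) and the Golgi stress element ACGTGGC (2.02%, either strand) can overlap each other, and were found in none of the 3, nor in the sequences of Plekha3, Gltp, Cert1, Golga1 and Ugcg. Golga4 was not matched in the table. All these letters are those of the reference strain C57BL/6J, and the C3H copies carried by the congenic mice were not analysed here.

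The median log2 value of an array was 6.07 to 6.11, and correlations between arrays over all probe sets ran from 0.993 to 0.997. Markers of hepatocytes, the defining cells of the labelled tissue, were bright on every array, with a list mean of 13.39 to 13.48 in C57BL/6J mice and 13.50 to 13.54 in congenic mice. All 8 of 8 markers of Kupffer cells, the macrophages of liver, had lower means in the congenic mice. Each had an unadjusted p under 0.05, as did 12.2% of all genes. Of the 8 markers 0 passed the threshold over all genes (smallest limma adjusted p = 0.211). Their list mean ran from 9.40 to 9.69 in C57BL/6J and from 9.07 to 9.30 in the congenic strain. The part of these cells in the values of the members was not tested. The list mean of lymphocyte markers ran from 6.68 to 6.73 and from 6.45 to 6.68, that of cholangiocyte markers from 6.33 to 6.36 and from 6.36 to 6.50, and that of exocrine pancreas from 5.81 to 5.90 and from 5.94 to 5.97, in the same order of strains. Those of endothelial, stellate and adipocyte markers overlapped. The exocrine pancreas means lay below 6.1, the median of all probe set means over the 6 arrays. None of the exocrine pancreas markers passed (smallest limma adjusted p = 0.465). In whole liver, fewer cells of a type and less RNA per cell cannot be told apart.

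Tgoln1 was lower in B6.C3H-6T at each of its 4 probe sets, and at each the highest congenic array lay below the lowest C57BL/6J array. Its brightest probe set, 1423309_at, read 11.21, 11.33 and 11.20 in the C57BL/6J mice and 10.35, 9.87 and 10.21 in the B6.C3H-6T mice (log2 expression values, replicates 1 to 3). The strains were 0.84 apart at their nearest arrays, and the C57BL/6J mice lay much closer together than the congenic mice. The fall was 1.10 ± 0.12 on the log2 scale (difference ± SE, n = 3 per strain), a 2.14-fold fall that left 46.7% of the C57BL/6J level (limma adjusted p = 0.0152 over all probe sets). The call was lost without C57BL/6J replicate 1 (0.0689), 2 (0.103) or 3 (0.120) and without B6.C3H-6T replicate 3 (0.0625), while the difference stayed between -1.20 and -0.96.

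Another probe set of Tgoln1, 1423308_at, gave a difference of similar size, though it was dimmer than 1423307_s_at (mean over the 6 arrays 8.76 against 9.88). It read 9.07, 9.54 and 9.25 in C57BL/6J and 8.51, 7.86 and 8.34 in B6.C3H-6T, a difference of -1.05 ± 0.17 that did not pass over all probe sets (limma adjusted p = 0.125). The other probe sets of the gene showed smaller differences. For 1418520_at the values were 8.68, 8.93 and 8.69 against 8.40, 7.98 and 8.44, a difference of -0.49 ± 0.13 (adjusted p = 0.289). For 1423307_s_at they were 9.90, 10.25 and 10.03 against 9.88, 9.48 and 9.73, a difference of -0.36 ± 0.12 (adjusted p = 0.364), and here the nearest arrays of the strains were only 0.02 apart.

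The probe sets of Tgoln1 thus fell into a pair with a difference near 1 and a pair with less than 0.5. Within each array, the signal of 1423309_at exceeded that of 1423307_s_at by 1.08 to 1.31 in C57BL/6J and by 0.38 to 0.49 in B6.C3H-6T, so that the distance between these 2 probe sets shifted by -0.74 without overlap of the strains. Against 1418520_at the distance was 2.39 to 2.53 in C57BL/6J and 1.78 to 1.95 in B6.C3H-6T. Against 1423308_at the mean distance was 1.95 ± 0.17 (SD) in one strain and 1.91 ± 0.08 in the other, with overlap. The size of the Tgoln1 difference therefore depends on the probe set read. The probe sequences were not used here, and whether the strains differ in sequence under the probes was not tested.

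Plekha8 was lower at both of its probe sets. The brighter one, 1454819_at, read 8.35, 8.68 and 8.48 in C57BL/6J and 7.62, 7.25 and 7.67 in B6.C3H-6T. The strains were 0.67 apart at their nearest arrays. The fall was 0.99 ± 0.12 on the log2 scale, 1.99-fold, to 50.3% of the C57BL/6J level (limma adjusted p = 0.0438 over all probe sets). The call was lost without any 1 array (adjusted p from 0.0689 without C57BL/6J replicate 1 to 0.268 without C57BL/6J replicate 3), with differences from -1.07 to -0.86. The other probe set, 1436128_at, read 7.37, 6.84 and 6.82 against 6.32, 6.46 and 6.52, a difference of -0.57 ± 0.14 (adjusted p = 0.270). There C57BL/6J replicate 1 stood above the 2 other mice of its strain, and without 1 array the difference ran from -0.67 to -0.39.

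St3gal5, the gene of GM3 synthase, was not past the threshold but came next after these genes among the members. Its probe set 1460241_a_at read 10.13, 10.16 and 10.45 in C57BL/6J and 9.11, 9.43 and 9.57 in B6.C3H-6T, a difference of -0.88 ± 0.13, or 54.5% of the C57BL/6J level (limma adjusted p = 0.0813). Its probe set 1449198_a_at read 9.89, 9.98 and 10.19 against 9.19, 9.35 and 9.48, a difference of -0.68 ± 0.10 (adjusted p = 0.0813). The nearest arrays of the strains were 0.55 and 0.41 apart, where those of Plekha8 were 0.67 and 0.30 apart. With trend and robust variances in limma 1460241_a_at passed (adjusted p = 0.0482). Leaving out 1 array moved the differences from -0.98 to -0.75 and from -0.75 to -0.59.

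**Figure D1:**
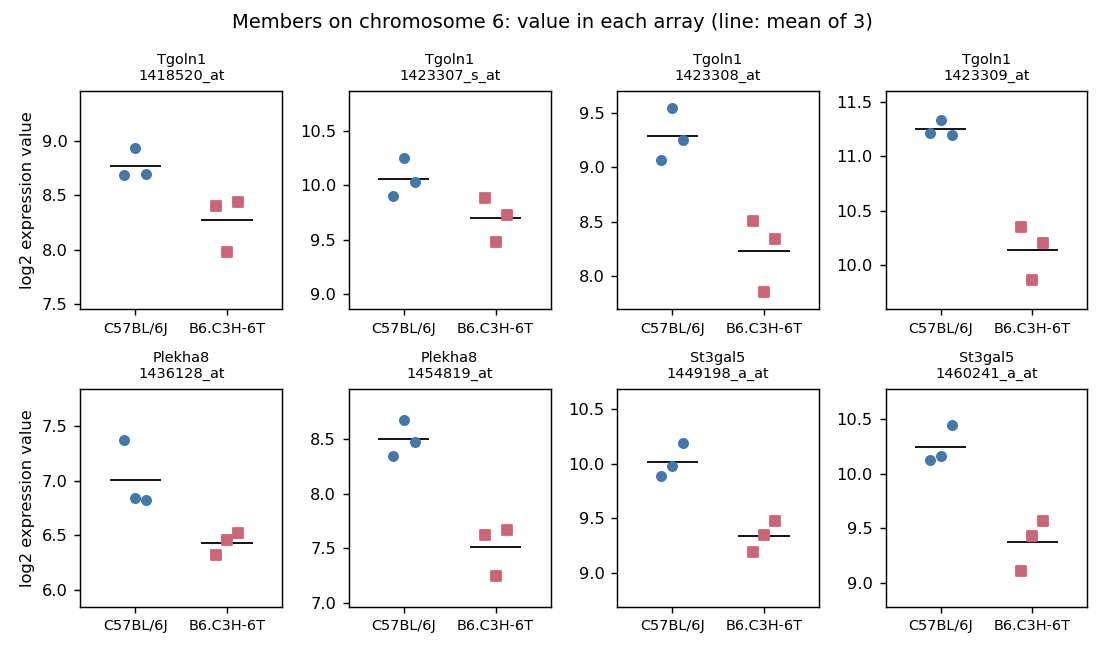
Log2 expression value (vertical axis, the same span in each panel) of each array for the 8 probe sets of Tgoln1, Plekha8 and St3gal5, with C57BL/6J as circles and B6.C3H-6T as squares and a line at the mean of 3 arrays. In all 8 panels the 3 squares lie below the 3 circles, by 0.84 at the nearest arrays of 1423309_at and by 0.02 at those of 1423307_s_at.

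Among the congenic mice the order differed between probe sets, within a gene as well as between genes. Replicate 2 was the lowest of the 3 at all 4 probe sets of Tgoln1 and at the brighter one of Plekha8. At both probe sets of St3gal5, and at the dimmer one of Plekha8, replicate 1 was the lowest and replicate 3 the highest. Among the C57BL/6J mice replicate 2 was the highest at all 4 probe sets of Tgoln1, and replicate 3 at both of St3gal5. The root mean square distance between the centred patterns over the 6 arrays was 0.101 between Tgoln1 and Plekha8, each by its brightest probe set. It was 0.295 between Tgoln1 and St3gal5 and 0.251 between Plekha8 and St3gal5. The centring was over both strains, so these distances include the strain difference for which Tgoln1 and Plekha8 were chosen. Nothing is read from them.

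Of the 26 member probe sets 2 passed the threshold, both lower in B6.C3H-6T, beside 0.0577% of all probe sets in either direction and 0.0466% lower. The strains did not overlap, with the congenic arrays below, at 11 of the 26, against 6.44% of all probe sets (16.0% in either direction). These 11 were the 8 of chromosome 6, 2 of Golga4 and 1 of Cert1. On chromosome 6 as a whole, 183 of 1925 probe sets (9.51%) showed this pattern and 183 showed the opposite one, with all congenic arrays above. There 8 passed the threshold in either direction. Since the members were chosen on this comparison, nothing is read from these shares.

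The 18 member probe sets of genes on other chromosomes differed by -0.30 to 0.22, with a median of -0.06, beside a median of 0.02 over all probe sets and -0.78 over the 8 of chromosome 6. None of the 18 passed in limma (adjusted p from 0.341 to 0.988). Of the 18, 4 had an unadjusted p under 0.05, a larger share than the 10.6% of all probe sets. These were 1448803_at and 1460213_at of Golga4, both lower, and the dim 1420383_a_at and 1449847_a_at of Cert1, both higher. Probe sets of the same gene are not independent, so nothing is read from this share. A signal at or above the median of all probe sets was reached by 21 of the 26, among them the 8 on chromosome 6.

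**Figure D2:**
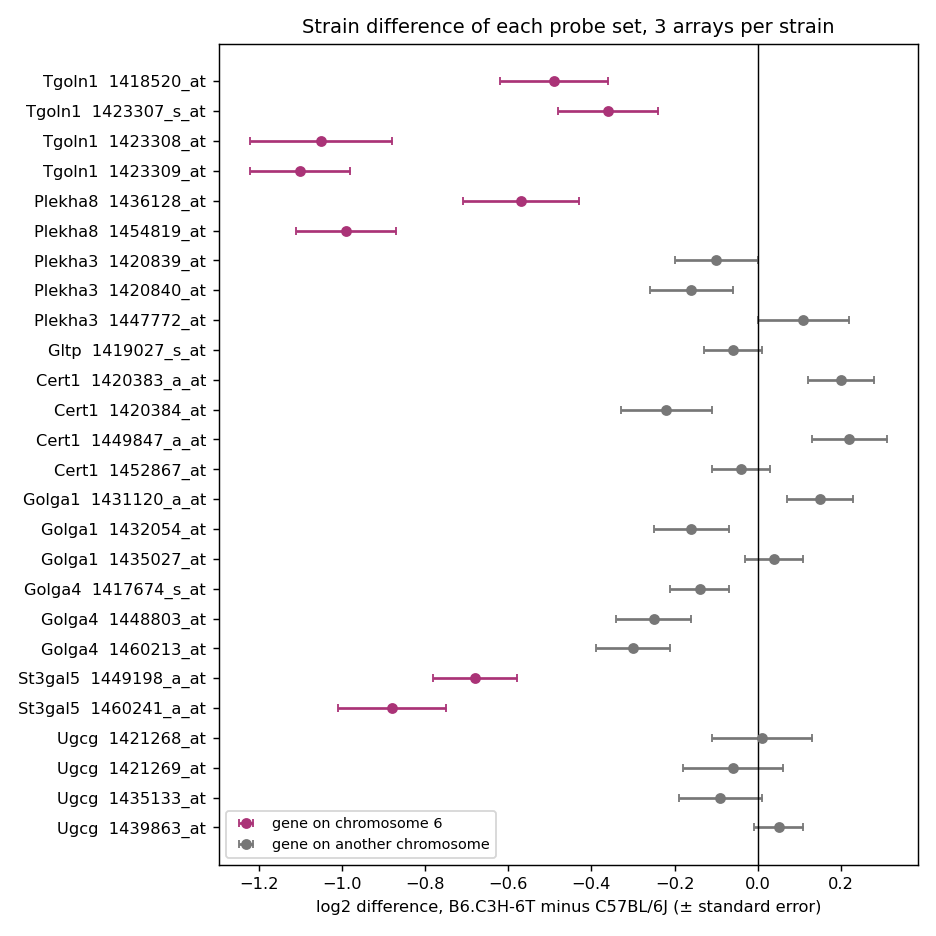
Log2 difference, B6.C3H-6T minus C57BL/6J, with its standard error (bars), for each of the 26 member probe sets, 3 arrays per strain, coloured by whether the gene lies on chromosome 6. The 8 probe sets of chromosome 6 run from -1.10 to -0.36 and the 18 others from -0.30 to 0.22.

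The other genes of lipid transfer did not pass. Plekha3 encodes FAPP1, which binds PI4P at the trans-Golgi through a domain like that of Plekha8 but lacks the part that carries glycolipid. Its probe set 1420839_at read 7.24, 7.53 and 7.27 in C57BL/6J and 7.24, 7.12 and 7.37 in B6.C3H-6T, a difference of -0.10 ± 0.10. The other 2 differed by -0.16 ± 0.10 (1420840_at) and 0.11 ± 0.11 (1447772_at), and all 3 overlapped between the strains. Gltp, the gene of the cytosolic glycolipid transfer protein, had 1 probe set, 1419027_s_at. It read 7.23, 7.39 and 7.33 against 7.24, 7.24 and 7.27, a difference of -0.06 ± 0.07.

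Cert1, the gene of the ceramide carrier, gave probe sets with opposite signs. Its brightest, 1452867_at, read 9.64, 9.77 and 9.56 in C57BL/6J and 9.65, 9.64 and 9.58 in B6.C3H-6T, a difference of -0.04 ± 0.07 with overlap. Probe set 1420384_at read 6.60, 6.52 and 6.55 against 6.05, 6.46 and 6.49 and differed by -0.22 ± 0.11, with B6.C3H-6T replicate 1 far below the others, so that the difference ran from -0.30 to -0.08 without 1 array. Both of the dimmer probe sets were higher, by differences of 0.20 ± 0.08 (1420383_a_at, every congenic array above every C57BL/6J array) and 0.22 ± 0.09 (1449847_a_at). No probe set of Cert1 passed (limma adjusted p from 0.420 to 0.892).

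The golgin genes did not pass. All 3 probe sets of Golga4 were lower. Probe set 1460213_at read 7.68, 7.72 and 7.48 in C57BL/6J and 7.23, 7.29 and 7.47 in B6.C3H-6T, a difference of -0.30 ± 0.09 (limma adjusted p = 0.341), with the nearest arrays 0.01 apart. Probe set 1448803_at differed by -0.25 ± 0.09 (adjusted p = 0.390) and the brightest, 1417674_s_at, by -0.14 ± 0.07 (adjusted p = 0.530). Golga1 went both ways, with differences of 0.04 ± 0.07 at its brightest probe set 1435027_at, -0.16 ± 0.09 at 1432054_at and 0.15 ± 0.08 at 1431120_a_at, all with overlap of the strains.

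Ugcg, whose enzyme makes the glucosylceramide that Plekha8 carries, stayed near 0 at all 4 probe sets. The brightest, 1421268_at, read 8.32, 8.64 and 8.54 in C57BL/6J and 8.63, 8.27 and 8.62 in B6.C3H-6T, a difference of 0.01 ± 0.12. The others differed by -0.09 ± 0.10, -0.06 ± 0.12 and 0.05 ± 0.06, and the groups overlapped at each. B6.C3H-6T replicate 2 was the lowest congenic array at all 4, as it was at those of Tgoln1.

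**Figure D3:**
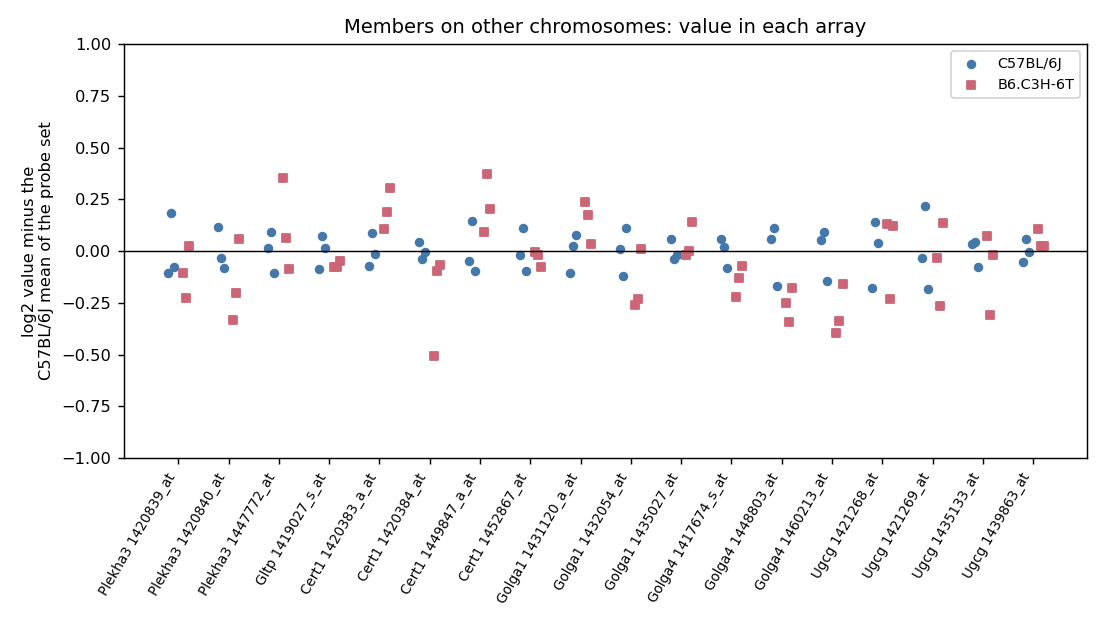
Log2 value of each array minus the C57BL/6J mean of the same probe set (vertical axis) for the 18 member probe sets on other chromosomes, with C57BL/6J as circles and B6.C3H-6T as squares. Squares and circles overlap at 14 of the 18 probe sets, and the exceptions are 2 of Golga4 and 1 of Cert1 below and 1 of Cert1 above.

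The members of chromosome 6 were then set beside the genes next to them, since a congenic strain carries a block of neighbouring genes of the donor. In the order of the gene table, 85 measured genes lie between Plekha8 and St3gal5, and 15 between St3gal5 and Tgoln1, out of 992 measured on the chromosome. The 10 measured genes on each side of each member, 55 in all, had a median difference of 0.01, and 0 of them passed in limma over all genes, where 0.0715% of all genes passed. At an unadjusted p under 0.05 there were 12 of the 55, a larger share than the 12.2% of all genes. All 12 were lower in B6.C3H-6T. Over all genes, 1059 were lower and 1157 higher at that p. Without B6.C3H-6T replicate 3, however, there were 10 lower and 8 higher. The differences of the 55 ran from -0.60 to 0.26, with 25 lower and 30 higher. The brightest probe sets of Plekha8, St3gal5 and Tgoln1 lay below this range, as did 1423308_at of Tgoln1 (-1.05) and 1449198_a_at of St3gal5 (-0.68). Probe sets 1418520_at (-0.49) and 1423307_s_at (-0.36) of Tgoln1 and 1436128_at (-0.57) of Plekha8 lay within it. Nothing is read from these places, since Tgoln1 and Plekha8 were chosen for their low values.

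Beside Plekha8, the gene just before it, Fkbp14, which encodes an isomerase of the endoplasmic reticulum, differed by -0.45 ± 0.08, from 6.28 ± 0.16 to 5.83 ± 0.04 (mean ± SD, n = 3; limma adjusted p = 0.154 over all genes). Ggct, a gene of glutathione turnover, differed by -0.32 ± 0.10 and the ubiquitin ligase gene Znrf2 by -0.26 ± 0.07. Beside St3gal5, the gene just before it, Polr1a, which encodes the large subunit of RNA polymerase I, differed by -0.50 ± 0.10 (adjusted p = 0.180). The mitochondrial ribosomal protein gene Mrpl35 differed by -0.45 ± 0.07, from 9.65 ± 0.09 to 9.20 ± 0.06 (adjusted p = 0.101). Vamp5, a gene of the SNARE family, lies among the neighbours of both St3gal5 and Tgoln1 and differed by -0.53 ± 0.10 (adjusted p = 0.165). The gene just before Tgoln1 was Retsat, the retinol saturase gene, which went from 12.35 ± 0.15 to 11.75 ± 0.28, a difference of -0.60 ± 0.13 (adjusted p = 0.200). Elmod3 before it differed by -0.40 ± 0.09 (adjusted p = 0.212), while Tcf7l1, the gene just after Tgoln1, named after its value was seen, differed by 0.09 ± 0.07. Vamp5 passed without B6.C3H-6T replicate 1 (0.0466) and Polr1a without B6.C3H-6T replicate 3 (0.0465).

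**Figure D4:**
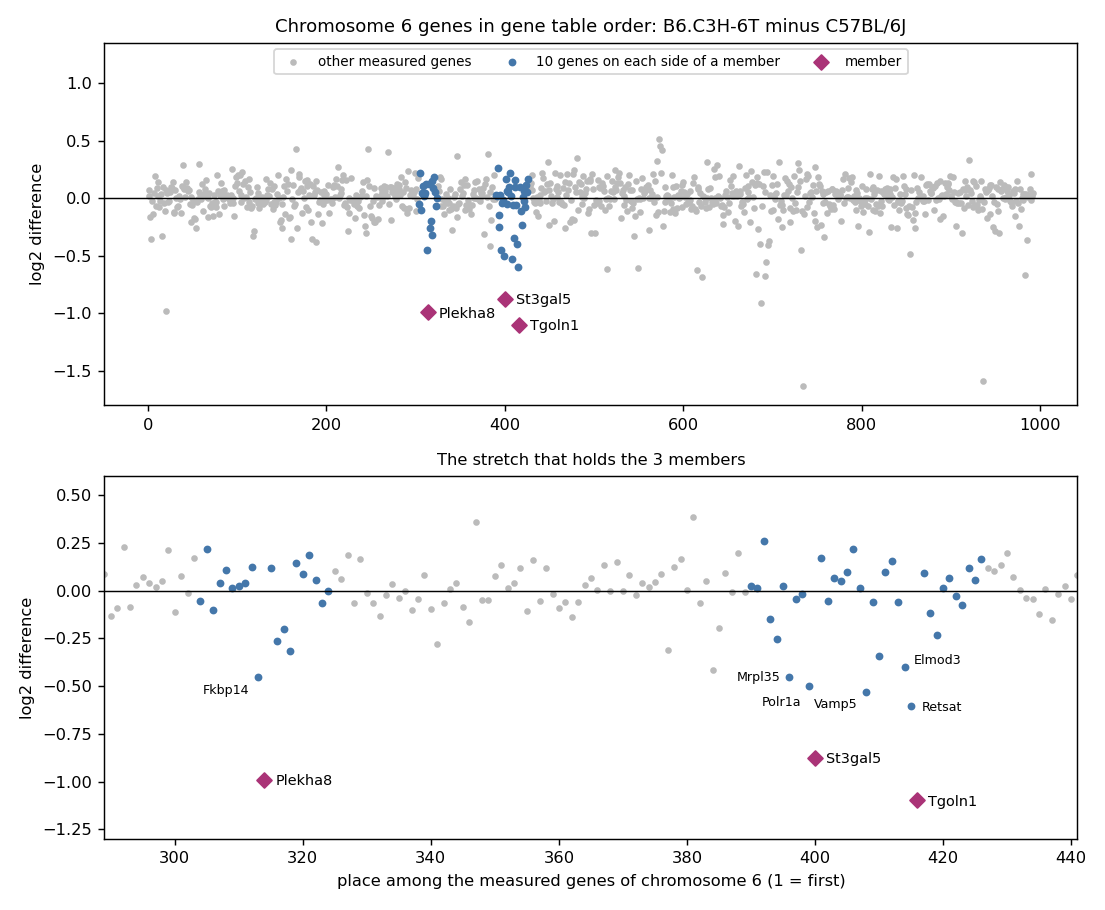
Log2 difference, B6.C3H-6T minus C57BL/6J (vertical axis), of each of the 992 measured genes of chromosome 6 by its place in the gene table's order (horizontal axis), for the whole chromosome above and the stretch with Plekha8, St3gal5 and Tgoln1 below. Diamonds are the members and blue points the 55 genes within 10 places of one, which run from -0.60 to 0.26 and of which those lower than -0.35 are named.

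The rest of the trans-Golgi and sphingolipid machinery was described with 6 lists, which held 144 measured genes beside the members. Of these 144 genes 76 were lower and 68 higher, with a median of -0.02 beside 0.02 over all genes. In limma 0 passed over all genes. At an unadjusted p under 0.05 there were 12, 6 in each direction, which is 8.33% beside 12.2% of all genes. The furthest from 0 was Gba2, at -0.36.

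Of the other golgins and trans-Golgi tethers, 16 of 23 were lower and 7 higher, with a median of -0.05 and 0 past the threshold. Gcc2, which encodes a golgin of the same family as Golga1 and Golga4, differed by -0.27 ± 0.08 (limma adjusted p = 0.283). Vps54, a gene of the GARP complex that tethers vesicles from endosomes, differed by -0.24 ± 0.08 and the golgin-45 gene Blzf1 by -0.18 ± 0.08. Of the cargo sorting genes 22 of 37 were lower and 15 higher, with a median of -0.03. The adaptor gene Ap1s1 differed by 0.18 ± 0.06, the small GTPase gene Arf3 by -0.17 ± 0.07 and the retromer gene Vps26a by -0.13 ± 0.07, and 0 passed (smallest adjusted p = 0.339).

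Of the genes of lipid transfer and of PI4P, the lipid that draws the Plekha8 protein to the trans-Golgi, 12 of 19 were higher and 7 lower, with a median of 0.02. Here 0 passed and 0 had an unadjusted p under 0.05 (smallest adjusted p = 0.418 in limma). The genes of PI4P-making kinases Pi4k2b and Pi4kb differed by -0.16 ± 0.07 and 0.28 ± 0.16, and the calcium sensor gene Ncs1 by 0.11 ± 0.06.

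Of the genes of glycosphingolipid synthesis 14 of 23 were lower and 9 higher, with a median of -0.05 and 0 past the threshold. Cmas, whose enzyme activates the sialic acid that St3gal5 transfers, had the smallest p and differed by -0.29 ± 0.07, from 9.72 ± 0.11 to 9.43 ± 0.02 (limma adjusted p = 0.240). The sialyltransferase genes St6galnac6 and St8sia5 differed the other way, by 0.25 ± 0.08 and 0.25 ± 0.10. Of the genes of breakdown 7 of 13 were lower and 6 higher. Gba2, which encodes a glucosylceramidase outside the lysosome, differed by -0.36 ± 0.08 (adjusted p = 0.211), Gm2a, which encodes a lysosomal activator protein, by 0.25 ± 0.07 and the sialidase gene Neu1 by -0.16 ± 0.07. Of the ceramide and sphingomyelin genes 19 of 29 were higher and 10 lower. The ceramidase gene Acer3 differed by -0.28 ± 0.10, the ceramide phosphoethanolamine synthase gene Samd8 by 0.25 ± 0.09 and Kdsr, a gene of the first steps of ceramide synthesis, by -0.20 ± 0.10 (smallest adjusted p = 0.329).

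**Figure D5:**
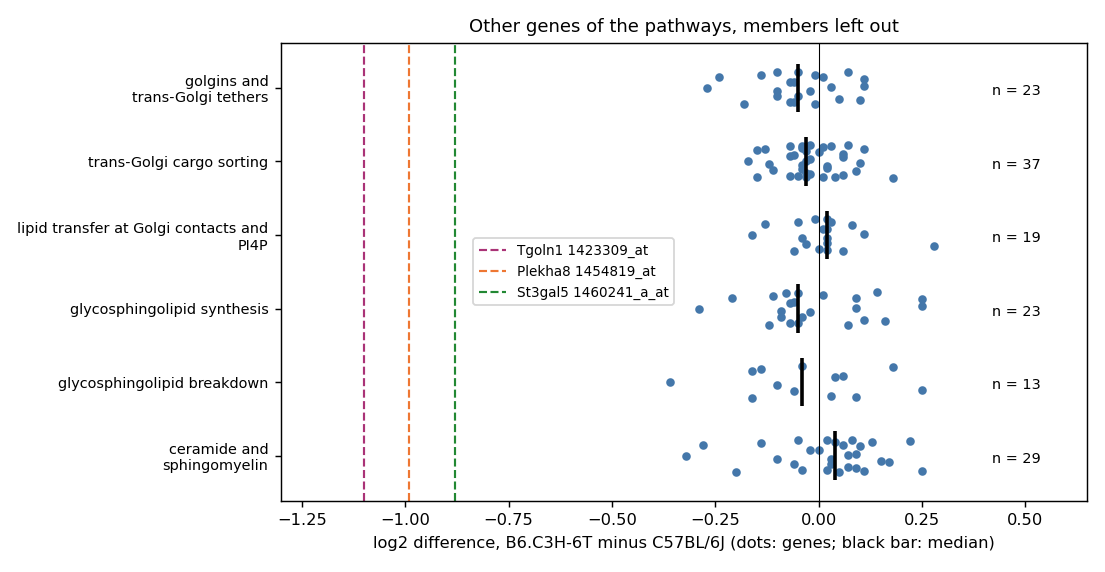
Log2 difference, B6.C3H-6T minus C57BL/6J (horizontal axis), of each measured gene of the 6 lists (dots, members left out), with the list median as a black bar and dashed lines at Tgoln1, Plekha8 and St3gal5. The listed genes lie between -0.36 and 0.28. The dashed lines stand at -1.10, -0.99 and -0.88, each for the brightest probe set of its gene. The members were chosen with this comparison known, so nothing is read from the gap.

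Outside the members, which were left out of the ranking, the genes whose values over the 6 arrays were most like those of Tgoln1 and Plekha8, by root mean square distance of the centred values, came from several chromosomes. Tgoln1 and Plekha8 themselves lay 0.101 apart. The strain difference is part of each distance, so genes with a fall of similar size come out as near. Of the genes that are no members Vnn1, a pantetheinase gene, was nearest to Tgoln1 (distance 0.145), followed by Bhlhb9, Pgap1, Pdk4 and Inhbe (0.173 to 0.189). Inhbe, a gene of the activin family, was the nearest of them to Plekha8 (0.104), followed by Pex11a, Vnn1, Pdk4 and Pgap1 (0.111 to 0.138). Of these 6 genes only Pdk4 lies on chromosome 6. None of them passed over all genes in limma. Vnn1 differed by -1.03 ± 0.19 (adjusted p = 0.141) and Pgap1, a gene of the processing of GPI anchors, by -0.79 ± 0.12 (adjusted p = 0.0678).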

How the data were processed

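Expression in the 6 livers was read on Affymetrix arrays, and the authors deposited 1 log2 value per probe set and array. They used RMA and affy, per the submitters' processing notes, with versions not given in the sources used here. Of 45101 probe sets, 64 controls were left out. Names came from the platform annotation, in which 34945 probe sets had 1 gene, 932 several and 9160 none. A RefSeq table of GRCm38.p6 gave current symbols, synonyms, chromosomes and gene order.

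The strain comparison used limma 3.58.1 (R 4.3.3; lmFit then eBayes, no covariate, no filter on dim probe sets), with Benjamini-Hochberg adjustment over all 45037 probe sets for members and over 18194 genes, each by its brightest probe set, for other genes. The threshold was 0.05. The 3 mice per strain are separate animals, and their number limits the precision. Genes named beside the members were set by rule: the 3 of smallest p per list and per member's neighbours, and the 5 most like Tgoln1 and Plekha8. The members, lists and rules were chosen with earlier results of these data known. Listed names that no probe set measures alone were not used here. The fit was tested on simulated data. Their errors were independent and followed the variance model that limma assumes, so that model itself was not tested. Alternatives were other normalizations, filters, variance models, probe set choices and leaving out each array.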

Additional observations from a re-analysis of the deposited data

How the results depend on the processing

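Of the 26 member probe sets, 2 passed in the comparison as reported, and the number was 0 to 1 when 1 array was left out. It was 0 without any 1 of the C57BL/6J arrays or without B6.C3H-6T replicate 3. Only 1423309_at of Tgoln1 passed without B6.C3H-6T replicate 1 (limma adjusted p = 0.0260) or replicate 2 (0.0103), and over all alternatives its adjusted p ran from 0.00664 to 0.444. That of 1454819_at of Plekha8 ran from 0.0187 to 0.496. After quantile normalization 1 passed (Plekha8, adjusted p = 0.0578, did not), and 0 passed without moderated variances, where 8 had an unadjusted p under 0.05 and none of all 45037 passed. With trend and robust variances 1460241_a_at of St3gal5 passed too (adjusted p = 0.0482). The 330 recomputed member differences all moved by less than 1 SD between mice. Nothing is read from this, since leaving out 1 of 3 arrays cannot move a difference that far. The filters and the trend and robust or unmoderated variances leave each difference as it was. Of the 55 neighbours 0 to 1 passed without 1 array: Vamp5 (0.0466) without congenic replicate 1 and Polr1a (0.0465) without congenic replicate 3. With the mean of all probe sets of a gene 1 passed, Mrpl35 (0.0148). The cause of these changes was not tested. The 144 listed genes gave 0 under every alternative. No paired analysis was possible because the labels give the strains no shared numbers.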
